A study of Mus musculus with 8 samples.

Results

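Arc, Npas4, Homer1, Bdnf, Nptx2, Vgf, Pcsk1 and Inhba are 8 genes that neuronal activity is known to induce: 1 transcription factor, Npas4, and 7 genes whose products act at synapses or are secreted. They were chosen by name, with earlier results of these data known, and all 8 were found among the 24498 genes of the deposited table. All 8 also passed the filter on low values that left 12681 genes to test.

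The mice were C57BL/6J males, 10 to 12 weeks old, and RNA was taken from their dorsal hippocampus; 4 groups of 2 libraries crossed a viral vector with training. In trained knockdown mice and untrained knockdown mice the vector was AAV2/9.U6.shACSS2.CMV.EGFP, which makes a short hairpin RNA against Acss2 from a U6 promoter and EGFP from a CMV promoter. In trained control mice and untrained control mice it was AAV2/9.CMV.EGFP.polyA, which makes EGFP and no hairpin, and the sample labels call these mice WT. All mice thus carried an AAV and EGFP and had isoflurane and meloxicam at surgery, and the presence of a hairpin differed together with the knockdown. Neither promoter is specific to neurons, so the vector does not restrict the hairpin to them. Training began 3 weeks after injection. Trained mice had been handled on 3 days, explored 3 objects in an arena in 3 trials of 6 min, and were killed 30 min later. Untrained mice were home cage controls. How many mice went into a library is not stated, so the spread between the libraries of a group may be only technical. The p-values set differences between groups against that spread, estimated over all libraries. ACSS2 makes acetyl-CoA, the donor for histone acetylation, from acetate, and the study asked how its loss bears on gene expression around learning.

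Activity opens calcium channels and glutamate receptors in neurons, and the calcium signal reaches the nucleus, where factors such as CREB and SRF bind the promoters of immediate early genes. Some of these genes encode transcription factors, among them Npas4, which pairs with ARNT proteins and in mouse neurons acts on Bdnf among other genes. Others encode proteins that change the synapse directly. In the hippocampus Arc is widely used as a mark of recently active neurons and is needed for lasting memory in rodents.

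Regulatory sequence was shown for the members whose 300-base promoter windows (250 bases before to 50 after an annotated start, RefSeq, GRCm38.p6) held the core of the cAMP response element, the site at which CREB binds. The core was searched as CGTCA on both strands, and 20.8% of 32851 windows of all genes hold it. No window was given for Arc, Nptx2 or Vgf, so their promoters were not searched. Windows were given for 5 of the 8 members, 12 windows in all, and 4 of them held the core, which is in capitals here:
Npas4 (chr19:4989922-4990221, minus strand): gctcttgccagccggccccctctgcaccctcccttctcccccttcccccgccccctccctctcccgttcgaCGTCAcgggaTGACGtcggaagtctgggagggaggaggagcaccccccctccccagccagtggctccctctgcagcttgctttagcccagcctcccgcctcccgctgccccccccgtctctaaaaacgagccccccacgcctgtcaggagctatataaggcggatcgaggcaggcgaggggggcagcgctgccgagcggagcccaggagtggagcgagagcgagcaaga
Homer1 (chr13:93303507-93303806, plus strand): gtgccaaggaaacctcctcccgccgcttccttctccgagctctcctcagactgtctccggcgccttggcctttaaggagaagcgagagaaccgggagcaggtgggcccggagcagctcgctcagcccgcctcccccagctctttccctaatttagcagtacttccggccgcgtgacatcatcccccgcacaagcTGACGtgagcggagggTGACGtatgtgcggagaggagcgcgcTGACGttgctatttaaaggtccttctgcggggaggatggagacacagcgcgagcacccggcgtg
Bdnf (chr2:109692186-109692485, plus strand): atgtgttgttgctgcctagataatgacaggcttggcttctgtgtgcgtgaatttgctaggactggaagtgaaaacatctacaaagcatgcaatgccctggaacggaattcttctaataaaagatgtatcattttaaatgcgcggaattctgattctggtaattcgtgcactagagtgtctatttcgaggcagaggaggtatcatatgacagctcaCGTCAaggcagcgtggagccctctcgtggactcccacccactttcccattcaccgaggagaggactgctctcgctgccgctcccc
Pcsk1 (chr13:75089607-75089906, plus strand): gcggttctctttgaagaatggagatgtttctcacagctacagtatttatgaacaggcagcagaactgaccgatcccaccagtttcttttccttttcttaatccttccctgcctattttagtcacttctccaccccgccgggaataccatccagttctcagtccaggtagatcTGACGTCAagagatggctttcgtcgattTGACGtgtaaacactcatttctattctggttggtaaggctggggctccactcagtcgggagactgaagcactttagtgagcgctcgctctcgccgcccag

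Npas4 had 2 cores, whose first bases lay 179 and 169 bases before the start. Homer1 had 3, at 56, 40 and 14 bases before the start, and the 1 Bdnf core lay 35 bases before its start. Pcsk1 had 3, of which those at 78 and 75 bases before the start overlap in the full palindrome TGACGTCA, a match found in 1.79% of all windows, and the third lay at 50 bases. The Bdnf window shown also held the NPAS4 motif (searched as TCGTG on both strands, in 16.0% of all windows) at 2 places, and 2 further Bdnf windows held it. The other 6 Bdnf windows, the other Homer1 window and the Inhba window held no core. The CArG box, to which SRF binds, was in none of the 12 windows and in 1.63% of all windows, searched on both strands. A match of letters is no evidence of binding.

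Values below are normalized read counts, which are read counts that the authors divided by 1 size factor per library. Libraries are named by vector and by the number that ends the deposited column name. With the knockdown vector, KD.249 and KD.251 were trained, KD.253 and KD.255 untrained. With the control vector, eGFP.250 and eGFP.266 were trained, eGFP.254 and eGFP.268 untrained. Reads in genes numbered 6537749 to 9863728 in 6 libraries, but 1484318 in KD.251 and 272456 in KD.255, where 1 read was worth 2.88 and 15.6 normalized counts. Comparisons that include KD.251 or KD.255 rest on fewer reads there, and many are also given from the 6 deep libraries alone. Intervals (95%, exact Poisson) and floors cover counting error only. The target, Acss2, had 25.6 and 57.7 in trained knockdown and 25.0 and 15.6 in untrained knockdown libraries, against 87.4 and 67.5 in trained control and 58.2 and 82.0 in untrained control libraries. No knockdown value reached a control value, but the gap between KD.251 and eGFP.254 is narrow, and the limma difference of -1.37 (SE 0.33, adjusted p = 0.333) did not pass. The 57.7 in KD.251 was 20 reads (95% interval 35.2 to 89.1), and the 15.6 in KD.255 was 1 read (0.394 to 86.7). Both intervals hold the control values 58.2, 67.5 and 82.0, so counting error alone could close the gap in these libraries. All 15 tested markers of pyramidal and granule neurons had reads in each of the 8 libraries. Choroid plexus markers, from tissue that borders the hippocampus, summed to 59933 in eGFP.250 and 15662 in eGFP.254, against 231 to 1936 in the other 6 libraries.

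**Figure D1:**
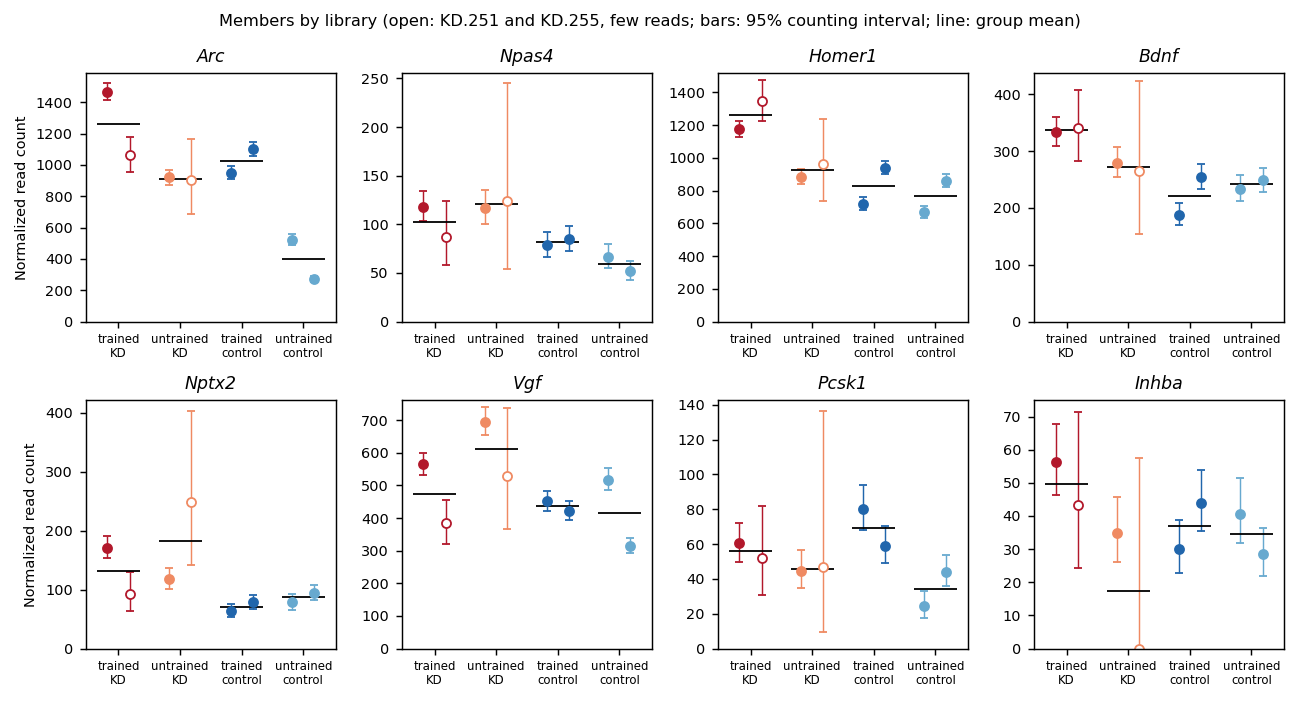
Normalized read count (y axis, from 0) of each of the 8 genes in each library, by group (x axis), with 95% counting intervals as bars and the group mean as a line. Open points are the shallow libraries KD.251 and KD.255; Arc is lowest in the 2 untrained control libraries, at 523 and 271, and the counting intervals of KD.255 are wide for every gene.

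Per kilobase of annotated exon, so that genes can be set side by side, Arc was the most abundant of the 8 in trained knockdown (414 normalized counts per kilobase), untrained knockdown (298) and trained control mice (336). In untrained control mice Vgf (140) and Arc (130) were close, with overlapping library values. Vgf was next to Arc in the other 3 groups (160, 206 and 147), followed by Homer1 (63.8 to 105 over the 4 groups). Bdnf (35.6 to 54.2) came before Nptx2 (28.0 to 72.3) except in untrained knockdown mice. Npas4 (14.3 to 29.1), Pcsk1 (6.10 to 12.4) and Inhba (2.73 to 7.79) were lowest in every group, in that order. These levels use all annotated exons as the length and so understate genes of which a short form prevails.

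Npas4 is the neuron-specific transcription factor of the set and one of the fastest to be induced by calcium entry (chromosome 19, 4984355 to 4990316, minus strand, protein coding, by GENCODE vM21 on GRCm38, as for the genes below). It had 118 and 86.5 normalized counts in trained knockdown and 117 and 124 in untrained knockdown libraries, against 78.6 and 84.7 in trained control and 66.3 and 51.9 in untrained control libraries. All 4 knockdown values lay above all 4 control values, although KD.251 (30 reads, 95% interval 58.4 to 124) and eGFP.266 (177 reads) were almost level. Knockdown libraries averaged 111 ± 16.9 and control libraries 70.4 ± 14.5 (SD over 4 libraries). On the log2 scale this was 0.67 (SE 0.22), short of the threshold in limma over all genes (adjusted p = 0.688). Untrained mice gave 1.03 (SE 0.28, limma adjusted p = 0.816) and trained mice 0.31 (SE 0.28, adjusted p = 1.00). Only 8 reads stand behind the 124 of KD.255, and without KD.251 and KD.255 the averaged difference was 0.75. The voom fit with library weights passed it at 0.69 (adjusted p = 0.0196), in a comparison where that fit called 3.81% of genes.

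Training left Npas4 with a different sign in each vector. In control-vector mice the trained libraries lay above the untrained ones (0.47, SE 0.28), and in knockdown mice the difference was -0.25 (SE 0.28). Without eGFP.268 the control-vector value was 0.30. Neither passed (limma adjusted p = 1.00 and 0.864), and the difference between the responses, -0.72 (SE 0.40), did not pass either (adjusted p = 1.00). From the 6 deep libraries the response in knockdown mice was 0.019, of the opposite sign to that from all libraries.

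Arc encodes a synaptic protein that drives internalization of AMPA receptors and assembles into capsid-like particles (chromosome 15, 74669083 to 74672570, minus strand, protein coding). It had 1467 and 1062 normalized counts in trained knockdown and 920 and 902 in untrained knockdown libraries. It had 951 and 1103 in trained control and 523 and 271 in untrained control libraries. The untrained control libraries stood lowest and KD.249 highest, and trained values lay above untrained ones within each vector. The untrained knockdown pair came close to the trained control pair, with 58 reads (685 to 1166) in KD.255.

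The training difference of Arc in control-vector mice was 1.44 (SE 0.30, n = 2 each), and 4 of 12681 genes had a smaller unadjusted p. It did not pass limma (adjusted p = 1.00) or edgeR, and it passed DESeq2 (1.37, adjusted p = 0.0240), which called 0.0315% of genes there. Its adjusted p ranged from 0.0240 to 1.00 over 19 other settings. In knockdown mice the difference was 0.45 (SE 0.30, limma adjusted p = 0.803), 0.67 from KD.249 and KD.253 alone and 0.22 without KD.249, which held the highest Arc. Averaged over vectors it was 0.95 (SE 0.26, adjusted p = 0.873), and trained values were above all untrained values, the lowest trained value being 951 and the highest untrained 920. The voom fit with library weights gave 0.83 (adjusted p = 0.0236) and called 5.28% of genes. Without eGFP.268, the library with the lowest Arc, the difference in control-vector mice was 0.97.

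Between vectors Arc differed by 1.27 (SE 0.30, limma adjusted p = 0.607) in untrained mice and by 0.28 (SE 0.30, adjusted p = 1.00) in trained mice. DESeq2 passed the untrained difference (1.21, adjusted p = 0.0355, with 0.434% of genes called). The training response was smaller in knockdown than in control-vector mice by 0.99 on the log2 scale (-0.99, SE 0.43, unadjusted p = 0.0473), which did not pass over all genes (adjusted p = 1.00). From the 6 deep libraries that value was -0.77, without eGFP.268 it was -0.52 and without eGFP.254 it was -1.46. The untrained control values, 523 and 271, were far apart, and without eGFP.268 the vector difference in untrained mice was 0.80. Averaged over training it was 0.78 (SE 0.26, limma adjusted p = 0.697) and 0.49 without eGFP.268, and the voom fit with library weights passed it at 0.72 (adjusted p = 0.0446, with 3.81% of genes called).

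Homer1 encodes scaffolds that tie group I metabotropic glutamate receptors to Shank proteins and calcium stores, and activity induces a short form, Homer1a, that breaks those ties (chromosome 13, 93299635 to 93405129, plus strand). The deposited counts are per gene and do not separate the forms. Values were 1174 and 1347 in trained knockdown and 884 and 964 in untrained knockdown libraries, against 720 and 941 in trained control and 669 and 860 in untrained control libraries. The trained knockdown pair stood above the other 6 libraries. Differences between vectors were 0.61 (SE 0.22) for trained mice and 0.28 (SE 0.22) for untrained mice, and training gave 0.45 (SE 0.22) in knockdown and 0.12 (SE 0.22) in control-vector mice. None passed limma (adjusted p between 0.802 and 1.00), nor did the vector difference averaged over training (0.45, SE 0.15, adjusted p = 0.709). From the 6 deep libraries that average was 0.37, and training in knockdown mice 0.41.

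Nptx2 encodes a secreted pentraxin that clusters AMPA receptors on inhibitory neurons (chromosome 5, 144545902 to 144557478, plus strand). It had 171 and 92.3 in trained knockdown and 118 and 248.8 in untrained knockdown libraries, against 63.6 and 78.5 in trained control and 78.5 and 94.9 in untrained control libraries. Its vector difference averaged over training was the highest of the 8, although Inhba, with 0 reads in KD.255, had -1.06 (SE 1.01). The Nptx2 difference, 0.90 (SE 0.28), did not pass limma (adjusted p = 0.596). KD.251 (32 reads) and eGFP.268 overlapped, and the highest value, in KD.255, was 16 reads (142 to 404). The voom fit with library weights passed the averaged vector difference at 0.84 (adjusted p = 0.0254), with 3.81% of genes called. In untrained mice alone it was 0.98 (SE 0.41, limma adjusted p = 0.816), and 0.45 from the deep libraries. Without KD.253 it was 1.52 and passed (adjusted p = 0.0425), where KD.255 stands alone, its spread is assumed from the other groups, and 10.2% of all genes passed. Within a vector, trained minus untrained was -0.29 (SE 0.41) in control-vector and -0.44 (SE 0.41) in knockdown mice (adjusted p = 1.00 and 0.837). KD.249 against KD.253 alone gave 0.54, of the opposite sign. The averaged vector difference from the deep libraries was 0.86, with 1.27 in trained mice. Without KD.249 the difference in trained mice was 0.38, against 0.82 (SE 0.41) with all libraries.

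Bdnf encodes the neurotrophin that activates TrkB receptors and promotes lasting potentiation (chromosome 2, 109674700 to 109727007, plus strand). It has several promoters, of which activity uses some more than others, and the counts sum over all of them. Values were 334 and 340 in trained knockdown and 279 and 264 in untrained knockdown libraries, against 188 and 254.5 in trained control and 234 and 248.8 in untrained control libraries. All knockdown values lay above all control values, with 264 in KD.255 resting on 17 reads (154 to 423). Knockdown libraries averaged 304 ± 38.2 and control libraries 231 ± 30.0 (SD over 4 libraries), and the difference of 0.40 (SE 0.16) did not pass (limma adjusted p = 0.848). The vector difference was 0.62 (SE 0.22) in trained mice and 0.17 (SE 0.22) in untrained mice. Training gave 0.31 (SE 0.22) in knockdown mice and -0.14 (SE 0.22) in control-vector mice, where the libraries overlapped. None of these passed limma (adjusted p between 0.808 and 1.00). Deep libraries alone gave an averaged vector difference of 0.41. In trained mice it was 0.40 without eGFP.250.

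Vgf encodes a secreted neuropeptide precursor that BDNF and activity induce (chromosome 5, 137026392 to 137033351, plus strand). It had 566 and 384 in trained knockdown and 696 and 529 in untrained knockdown libraries, against 452 and 423 in trained control and 518 and 316 in untrained control libraries. The lowest value was in eGFP.268 and the highest in KD.253, and trained and untrained libraries overlapped within each vector. Training differed by -0.38 (SE 0.29) in knockdown and 0.11 (SE 0.29) in control-vector mice. Between vectors, untrained mice differed by 0.58 (SE 0.29) and trained mice by 0.09 (SE 0.29), and none of these passed limma (adjusted p between 0.811 and 1.00). Deep libraries alone gave a vector difference of 0.78 in untrained and 0.37 in trained mice. The untrained one was 0.94 without eGFP.254, 0.39 without KD.253 and 0.23 without eGFP.268.

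Pcsk1 encodes a proprotein convertase that cleaves neuropeptide precursors in secretory granules (chromosome 13, 75089826 to 75134861, plus strand). It had 60.4 and 51.9 in trained knockdown and 44.8 and 46.7 in untrained knockdown libraries, against 80.1 and 58.8 in trained control and 24.4 and 43.9 in untrained control libraries. As for Arc, every trained value lay above every untrained value, but the closest ones, 51.9 in KD.251 (18 reads) and 46.7 in KD.255 (3 reads), are within counting error. Means were 62.8 ± 12.1 in trained and 40.0 ± 10.4 in untrained libraries (SD, n = 4 each). The training difference was 1.04 (SE 0.38) with the control vector, 0.29 (SE 0.38) with the knockdown vector and 0.67 (SE 0.28) averaged, with limma adjusted p of 1.00, 0.889 and 0.873. Without eGFP.254, which held the lowest value, the control-vector difference was 0.63 and the averaged one 0.43. The deep libraries gave a difference of 0.42 with the knockdown vector and 0.84 averaged. The vector difference was near 0 on average (0.09, SE 0.28).

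Inhba encodes the subunit of activin A, a secreted ligand that adult neurons make after activity (chromosome 13, 16011851 to 16031621, plus strand). It had 56.3 and 43.3 in trained knockdown and 34.9 and 0 in untrained knockdown libraries, against 30.0 and 44.0 in trained control and 40.7 and 28.4 in untrained control libraries. The 0 in KD.255 has a 95% counting interval up to 57.4 normalized counts, above both trained knockdown values. The floor of 3 reads there is 46.7. The fitted differences that include it, such as 3.07 (SE 1.30) for training in knockdown mice and -2.55 (SE 1.30) for the vector in untrained mice, depend on this 0. Without the shallow libraries they were 0.67 and 0.037. With all libraries they did not pass limma (adjusted p = 0.802 and 0.816). Without KD.253 the 0 in KD.255 is alone in its group and its spread is assumed from the other groups. The differences were then 5.65 and -5.13 and passed limma (adjusted p = 2.09e-04 and 3.14e-04), as did 9.79% and 10.2% of all genes. Reads of antisense transcripts that overlap Inhba and Bdnf cannot be told apart from theirs, since the strand setting of the counting is not given in the sources used here.

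**Figure D2:**
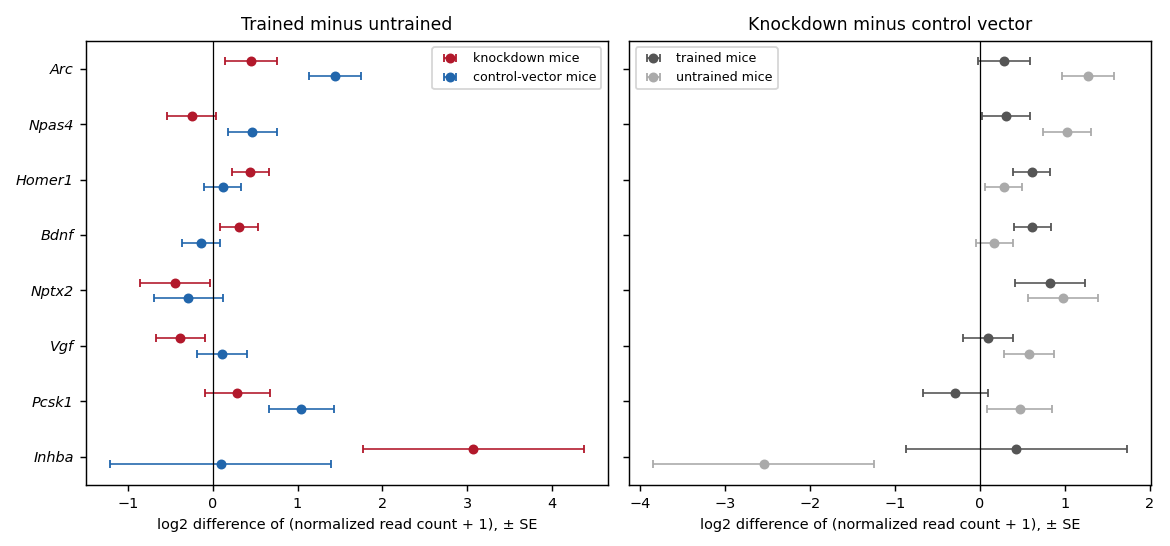
Fitted log2 difference of normalized read count + 1 (x axis, bars ± SE) for each gene (rows), for training within each vector and for the vector within each training state. Arc and Pcsk1 have the greatest training differences in control-vector mice (1.44 and 1.04), and the extreme Inhba values (3.07 and -2.55) rest on the 0 in KD.255.

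None of the 8 genes passed limma in any of the 7 comparisons. The share of all tested genes that passed was 0.103% for the vector averaged over training, 0.00789% for the vector in trained mice and 0% in the other 5 comparisons. No member passed edgeR, which called 0 genes for training in either vector or averaged, 23 (0.181%) for the vector in untrained mice, 122 (0.962%) for the vector averaged over training and 0 for the interaction. DESeq2 called 4 genes for training with the control vector, 0 with the knockdown vector and 8 averaged (0.0631%), 55 for the vector in untrained mice and 0 for the interaction. At an unadjusted p under 0.05, limma gave 181 genes for training in control-vector mice, 568 for training in knockdown mice, 616 for training averaged over vectors, 571 for the vector in untrained mice and 112 for the interaction. Over the 8 genes the median training difference was 0.11 with the control vector, 0.30 with the knockdown vector and 0.20 averaged, against 0.01, 0.04 and 0.03 over all genes tested. The median vector difference was 0.53 in untrained mice, 0.37 in trained mice and 0.42 averaged, against -0.05, -0.005 and -0.03 over all genes. Comparisons that share libraries are not independent of each other. The 8 genes were chosen with earlier results of these data known, so their contrast with all genes is a description and not a test.

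Counts of genes whose libraries did not overlap describe the same values another way. Of the 8 genes, 7 (all but Inhba) were higher in both untrained knockdown libraries than in both untrained control libraries, which 14.4% of all tested genes were. Several of these gaps were small. The closest values were 529 in KD.255 and 518 in eGFP.254 for Vgf, and 264 in KD.255 and 248.8 in eGFP.268 for Bdnf. For Pcsk1 they were 44.8 in KD.253 and 43.9 in eGFP.268, and for Homer1 884 in KD.253 and 860 in eGFP.268. Counting intervals overlapped within each of these pairs, and for the closest Nptx2 values (118 in KD.253 and 94.9 in eGFP.268). Of the 8, 4 (Npas4, Homer1, Bdnf and Nptx2) were higher in both trained knockdown than in both trained control libraries (14.4% of all genes). Without the shallow libraries these counts were 7 and 7, against 29.2% and 32.6% of all genes. Over all libraries Npas4 and Bdnf were higher in the 4 knockdown than in the 4 control libraries (2.28% of all genes). None was lower in all knockdown libraries (1.98% of all genes). In the 6 deep libraries 4 (Npas4, Bdnf, Nptx2 and Vgf) were higher in all knockdown libraries (10% of all genes) and 0 lower (9.57%). None was lower within either training state, with all libraries (16.8% of all genes in untrained and 14.8% in trained mice) or without the shallow ones (31.7% and 34.6%).

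For training, 3 of the 8 (Arc, Npas4 and Pcsk1) were higher in both trained control than in both untrained control libraries (14.5% of all genes), and 1, Nptx2, was lower (14.3%). The closest Nptx2 values, 78.46 in eGFP.266 and 78.51 in eGFP.254, lay less than 1 read apart and are level. In knockdown mice 5 (Arc, Homer1, Bdnf, Pcsk1 and Inhba) were higher in both trained libraries (16.4%), where the KD.255 value of Inhba is 0 reads, and 0 were lower (14%). Set against each other alone, KD.249 and KD.253 gave 7 higher (50.2% of all genes) and 1, Vgf, lower (49.7%). Arc and Pcsk1 were higher in all 4 trained than in all 4 untrained libraries (1.65% of all genes), and 0 were lower (1.62%). Without the shallow libraries these counts were 2 (6.1%) and 0 (7.52%). The training and vector comparisons share libraries, and a low untrained control pair enters both.

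The column numbers fall into those below 260 and 2 control-vector libraries above it, eGFP.266 and eGFP.268, and the labels do not say what the numbers stand for. With only the 6 libraries below 260, training in control-vector mice gave 0.86 for Arc, 0.24 for Npas4 and 1.67 for Pcsk1. The vector difference averaged over training was then 0.60 for Arc, 0.61 for Npas4 and 0.53 for Bdnf, and the interaction of Arc was -0.41. None of these passed limma, with 1 library in each control group.

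Other activity-regulated genes were listed for comparison. As background, 55.1% of all tested genes had higher fitted values with training averaged over vectors, and 44.3% for the vector averaged over training. These shares are over all 8 libraries and apply to the lists below too. No such share is at hand for the 6 deep libraries, so list counts from them have no background beside them. Of 19 tested transcription factors of this class, 17 had higher fitted values with training averaged over vectors, and 0 passed limma. Their median was 0.55, from -0.02 for Klf6 to 1.45 (SE 0.57) for Egr2, a zinc finger factor. The average covers unequal responses. With the control vector the median was 0.77 and Egr2 differed by 2.80, and with the knockdown vector the median was 0.32. The difference between the responses was below 0 for 14 of 19 (median -0.50), with -2.71 for Egr2, and 0 passed. It was above 0 for 52.9% of all tested genes. For the vector averaged over training 18 of 19 were higher (median 0.34, 0 passed), and 16 of 19 from the 6 deep libraries (median 0.64). Of 27 other effectors, 22 were higher with training (median 0.26, 0 passed), from -0.45 for the growth factor Igf1 to 1.80 (SE 0.94) for Gadd45b, which acts in stress signalling and DNA demethylation. Gadd45b had 0 reads in KD.255, and its training difference was 2.81 in knockdown mice and 0.80 in control-vector mice (SE 1.30 each). For the vector 16 of 27 were higher (median 0.10), and 20 without the shallow libraries (median 0.34). Fos, a member of the AP-1 factors, had 139 and 107 in trained knockdown and 87.7 and 140 in untrained knockdown libraries, against 131 and 103 in trained control and 37.8 and 15.5 in untrained control libraries. As for Arc, the untrained control pair lay below the other 6 libraries.

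**Figure D3:**
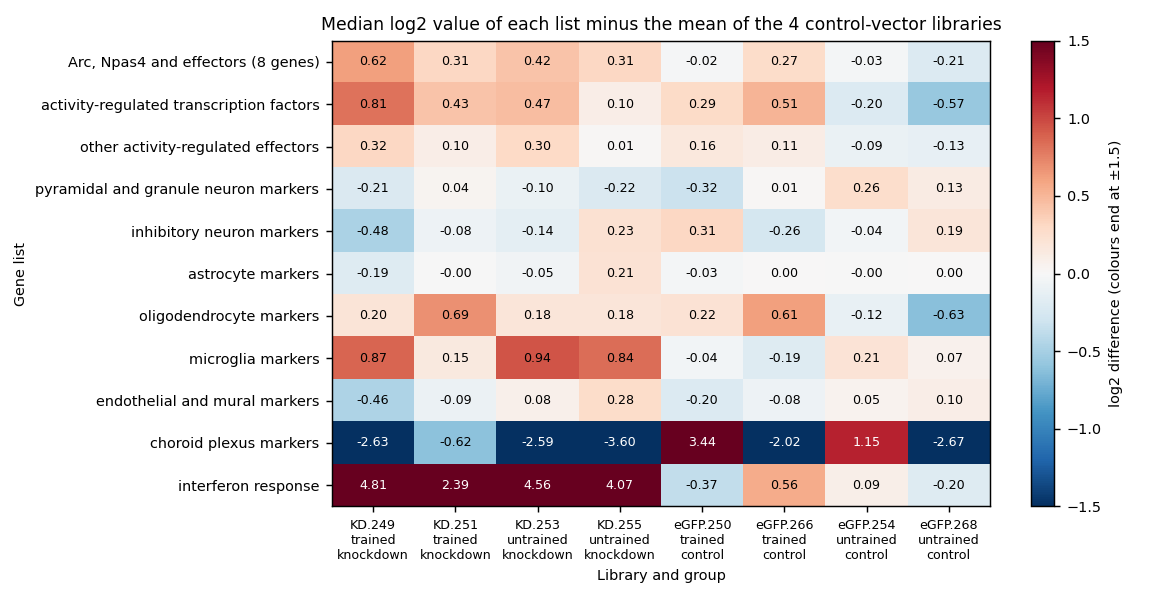
Median log2 value of gene lists (rows) in each library (columns), minus the mean of the 4 control-vector libraries; colours end at ±1.5 and the cell gives the value. The 8 genes run from -0.21 in eGFP.268 to 0.62 in KD.249; the activity-regulated transcription factors are lowest in eGFP.268 (-0.57) and eGFP.254 (-0.20), and oligodendrocyte markers are also lowest in eGFP.268 (-0.63).

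Partners of the 8 proteins were measured in the same libraries, and 0 passed limma in any of the 7 comparisons. For training averaged over vectors, the 3 tested dimerization partners of NPAS4 spanned -0.37 (Arnt2) to 0.26 (Arnt). The 8 endocytic and scaffold partners of Arc had a median of 0.03, from -0.39 for the actin regulator Wasf1 to 0.36 for the endophilin Sh3gl3. The 9 genes of the Homer and group I glutamate receptor complex had a median of -0.12, from -0.60 (SE 0.16) for the scaffold Shank1 to 0.07 for Shank3. The 7 tested BDNF receptors, related neurotrophins and processing proteins had a median of -0.17, from -0.33 for the convertase Furin to 0.92 (SE 1.09) for Ntf3. That Ntf3 value rests on 0 reads in KD.255, and training differed by -0.90 in control-vector mice and 2.75 in knockdown mice. The 6 pentraxin and AMPA receptor genes had a median of -0.14, from -0.36 for the pentraxin receptor Nptxr to 0.13 for Nptx1. The 10 tested activin pathway genes had a median of 0.05, from -0.47 for the subunit Inhbb to 0.52 for the inhibitory Smad7. In KD.255 Nptxr stood at the floor of 3 reads (46.7), Smad7 below it (31.1) and Inhbb at 77.8, so these extremes rest partly on few reads. The 11 dense core granule genes had a median of 0.01, from -0.37 for Pcsk1n, an inhibitor of PCSK1, to 0.19 for the granin Chgb. From the 6 deep libraries these 7 medians were -0.14, -0.05, -0.17, -0.19, -0.12, 0.06 and 0.02, and none of the 3 NPAS4 partners was then higher.

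For the vector averaged over training the same lists had medians of -0.21, -0.07, -0.05, 0.26, -0.01, 0.09 and -0.07, in the order just given. In the BDNF list 5 of 7 members were higher, also from the 6 deep libraries. The Arc partner list had 3 of 8 members higher with all libraries and 6 of 8 from the deep ones. From the 6 deep libraries the medians for the vector were -0.23, 0.14, 0.02, 0.28, 0.03, 0.17 and -0.18, in the same order.

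Markers of other cell types differed between the same libraries, and their part in the values above was not tested. Interferon response genes summed to 5530 and 1142 in trained knockdown and 4675 and 3126 in untrained knockdown libraries, against 288 and 405 in trained control and 312 and 278 in untrained control libraries. All 12 were higher for the vector averaged over training and 8 passed limma (Cxcl10, Ddx60, Ifit1, Ifit2, Ifit3, Irf7, Oasl2 and Rsad2, from 2.85 for Ifit2 to 5.15 for Cxcl10). All 10 microglia markers were higher there too (0 passed), with sums of 1385 to 1957 and 2053 to 2138 in trained and untrained knockdown libraries, against 1022 to 1091 and 1197 to 1203 in trained and untrained control libraries.

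All 10 oligodendrocyte markers were higher with training averaged over vectors (median 0.56, 0 passed) and for the vector averaged over training (median 0.32, 0 passed). Of the 10, 10 and 8 were higher in the deep libraries alone (medians 0.51 and 0.24). They summed to 17927 and 28068 in trained knockdown and 17198 and 18508 in untrained knockdown libraries, against 20534 and 23511 in trained control and 15213 and 10890 in untrained control libraries. None of these markers was at 0 in any library. The lowest sum was in eGFP.268, which also held the lowest Arc, Npas4 and Vgf. Pyramidal and granule neuron markers were not low there, at 47892 in eGFP.268 and 49539 in eGFP.254 against 36853 to 42970 in the other 6 libraries. All 15 were lower for training in control-vector mice (median -0.38) and for the vector in untrained mice (median -0.42; 2 of 15 higher from the 6 deep libraries), the comparisons in which Arc had its greatest differences, and 0 passed. In knockdown mice 12 of 15 were higher with training (median 0.25), and for the vector in trained mice 12 of 15 (median 0.13). Of all tested genes, 52.1% were higher with training in control-vector mice and 54.1% in knockdown mice. For the vector these shares were 44.8% in untrained and 49.3% in trained mice. Averaged over vectors the training median was -0.07 with 5 of 15 higher, and -0.21 with 0 of 15 higher from the 6 deep libraries. The vector median averaged over training was -0.19, and -0.17 from the deep libraries. In bulk tissue, fewer cells of a type and less RNA per cell cannot be told apart. Medians of the remaining lists for training and for the vector, each averaged, were -0.23 and -0.05 for inhibitory neurons (-0.18 and -0.28 from the 6 deep libraries) and -0.14 and -0.03 for astrocytes (-0.003 and -0.07). They were -0.28 and -0.04 for endothelial and mural cells (-0.30 and -0.14) and 1.42 and -2.36 for choroid plexus (1.02 and -2.47).

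Genes with the most similar pattern were sought for Arc, Npas4 and Vgf by the root mean square distance between log2 values over the 8 libraries, each gene centred on its own mean. For Arc the nearest were Egr1 (0.24), which encodes a zinc finger transcription factor, Apod (0.28), an apolipoprotein, and Cd9 (0.28), a tetraspanin, where Arc itself varied by 0.71 around its mean. Egr1 had 2835 and 2019 normalized counts in trained knockdown and 2561 and 1742 in untrained knockdown libraries, against 1919 and 2126 in trained control and 1438 and 706 in untrained control libraries. It too was lowest in eGFP.268. Egr1 and Apod were also the nearest pair over the 6 deep libraries, and Cd9 was the sixth.

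For Npas4, which varied by 0.41, the nearest were the ephrin receptor Ephb1 (0.14), Reep3 (0.14), which shapes the endoplasmic reticulum, and Spry4 (0.14), a feedback inhibitor of growth factor signalling. Over the 6 deep libraries these ranked 9, 8 and 4. For Vgf, which varied by 0.33, the nearest were Clu (0.05), the chaperone clusterin, the transcription factor gene Sall1 (0.07) and the transcription cofactor gene Lbh (0.12). Over the 6 deep libraries Clu and Sall1 ranked 1 and 2, and Lbh 10. Clu and Sall1 were highest in KD.253 and lowest in eGFP.268, as was Vgf. These distances share libraries and depth and are a description of 8 libraries.

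**Figure D4:**
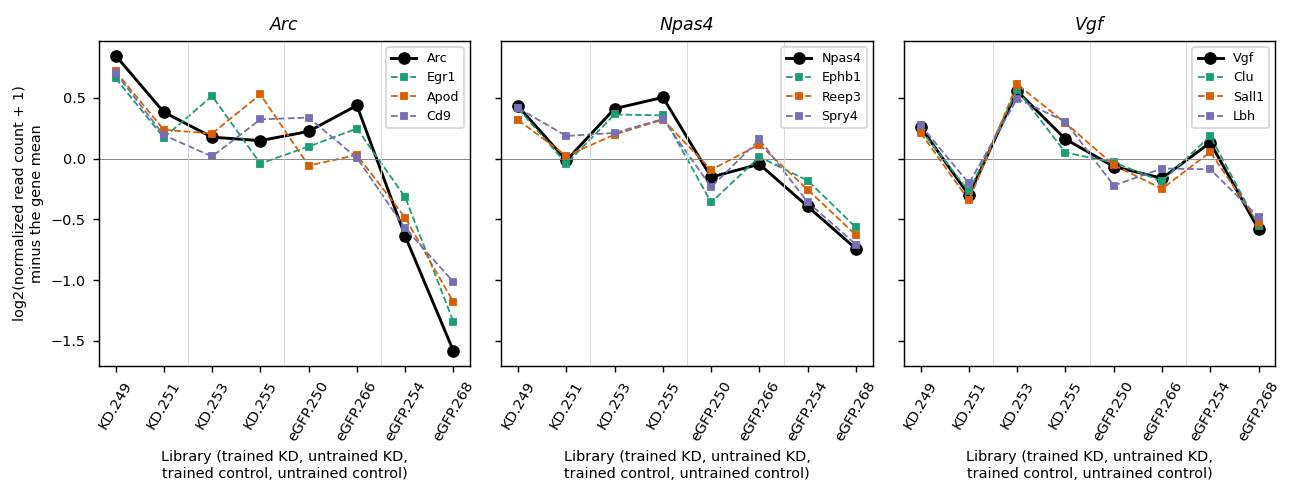
log2(normalized read count + 1) minus each gene's mean (y axis) over the 8 libraries (x axis) for Arc, Npas4 and Vgf (black) and the 3 genes nearest to each (dashed). Arc and its neighbours are lowest in eGFP.268, and Clu and Sall1 stay within 0.05 and 0.07 (root mean square) of Vgf.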

How the data were processed

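RNA-seq of mouse dorsal hippocampus was read from 1 deposited table of 24498 genes and 8 libraries. Per the submitters' processing notes, bcl2fastq 02.14.01.07, STAR 2.3.0, HTSeq 0.6.1, DESeq, bedtools and the mm10 build were used; the annotation used is not given in the sources used here, nor is the strand setting. The deposited values are a signal, namely read counts that the authors divided by a size factor. Dividing by the worth of 1 read gave whole reads for 100% of values (tolerance 1e-06). The 5 summary rows, 34.5% to 39.5% of reads per library, were left out. Columns were assigned to groups by vector and training in their names.

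Genes with a mean of at least 10 were tested with limma 3.58.1 (trend) on log2(value + 1) over the 4 groups, or with vector and training as additive terms for averaged differences, with Benjamini-Hochberg adjustment and a threshold of 0.05. Fold changes are on that log2 scale, which understates those of low genes that have reads in all libraries. A value of 0 in the shallow KD.255 can instead make them large, as for Inhba, Gadd45b and Ntf3. The fits were tested on simulated data. Alternatives used edgeR 4.0.16, DESeq2 1.42.0 and voom on the recovered reads, other pseudocounts (0.5 and 5), filters (none and 50) and scaling, and fewer libraries. The genes named are the 8, Acss2, Fos, the extremes of each comparison list for averaged training, and the 3 genes (mean of at least 100) nearest to Arc, Npas4 and Vgf. The 8 genes and all lists were chosen with earlier results of these data known.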

Additional observations from a re-analysis of the deposited data

Results flagged for a closer look

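Pcsk1 was the only one of the 8 genes with a library far from the others in a group of 4. Among the untrained libraries it had 44.8 in KD.253 and 46.7 in KD.255, against 24.4 in eGFP.254 and 43.9 in eGFP.268. The gap above eGFP.254, the lowest value, took 0.876 of the range, above the limit of Dixon's test for 4 values. The upper end of that range, 46.7 in KD.255, is 3 reads (95% counting interval 9.62 to 136), so the share taken by the gap is uncertain. Of 32 groups of 4 checked, 1 was picked out in this way, and chance picks out about 1 in 20.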

How the results depend on the processing

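Of 1057 values of the 8 genes under alternatives, 1013 kept their direction and side of the threshold. Another 34 reversed and 10 passed only under the alternative, and the cause was not tested. The 1013 include differences that could not change, because the library left out was in neither group compared. Arc training in control-vector mice, for example, stayed at 1.44 without KD.249. The lowest limma adjusted p of the 8 genes in the main fit was 0.596 (Nptx2, vector averaged over training), far from the threshold. The share that kept direction and side is therefore not a measure of robustness. No paired analysis was possible because the columns carry none of the replicate numbers of the titles. The counts limit KD.255 most, where 1 read is 15.6 normalized counts.

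Genes passing for the vector in trained mice numbered 1, but 0 with a pseudocount of 0.5, with no filter and with a filter at 50. With a pseudocount of 5, 1 gene passed for the vector in untrained mice. edgeR called 23, 4 and 122 genes for the vector in untrained mice, in trained mice and averaged (limma 0, 1 and 13), DESeq2 55, 33 and 195, and the fits without the 2 shallowest libraries 67, 79 and 212. DESeq2 called 4 genes for training in control-vector mice and 8 averaged. The voom fit called 669 for training averaged, 1 for the vector in untrained mice and 483 averaged. The column numbers fall into those below 260 and 2 control libraries above it; with only those below, or with a term for the split, 0 genes passed for the vector averaged, and 2 passed in trained mice with the term. Leaving out 1 library gave 0 to 1242 genes for training in knockdown mice, 0 to 1293 for the vector in untrained mice, 0 to 11 in trained mice, 1 to 100 averaged and 0 to 710 for the interaction, the highest of the first, second and last without KD.253. Counts of genes without overlap and list counts without the shallow libraries were chosen after seeing the data.

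Directions reversed as follows. For Inhba the averaged vector difference was -1.06 in the main fit. It was 0.19 with edgeR, 0.17 with DESeq2, 0.22 with voom and 0.33 without the shallow libraries, where the untrained one was 0.037. For Nptx2 the interaction was 0.12, 0.042, 0.44 and 0.82 in the same order, and training in knockdown mice was 0.15 with voom and 0.54 without the shallow libraries, and training averaged 0.21 with voom. Without the shallow libraries Npas4 training in knockdown mice was 0.019 and Bdnf training averaged -0.0079. With only libraries below 260, training in control-vector mice was -0.20 for Vgf and -0.43 for Inhba, and Npas4 training averaged -0.086. With the term for the split the Vgf vector difference in trained mice was -0.11.

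Leaving out 1 library, training in control-vector mice ranged from -0.076 to 0.31 for Homer1, -0.36 to 0.077 for Bdnf, -0.24 to 0.47 for Vgf and -0.18 to 0.36 for Inhba. Training averaged ranged from -0.032 to 0.27 for Npas4 and -0.33 to 0.027 for Vgf. For Nptx2, training in knockdown mice ranged from -0.98 to 0.093 and the interaction from -0.69 to 0.38. The vector difference ranged from -0.19 to 0.37 for Vgf in trained mice, -5.13 to 0.037 for Inhba in untrained mice, and, averaged, -1.79 to 0.27 for Inhba and -0.15 to 0.25 for Pcsk1.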
